A study of Mus musculus with 30 samples.

Results

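The markers of type 2 conventional dendritic cells (cDC2) examined here are Sirpa, Itgam, Zeb2, Cx3cr1, Ltb, Notch2 and Esam. They were taken from the gene table by symbol, which gave 7 rows of 25611, and all 7 passed the filter on low counts. RNA was sequenced in mouse bone marrow cells grown for 6 to 7 days with 200 ng/ml FLT3L, a cytokine that drives dendritic cell development. The cells were wild type (WT) or Rubcn KO (KO), and Rubcn encodes Rubicon, a protein of LC3-associated phagocytosis. In each genotype they were untreated, given ovalbumin protein (OVA) for 30 min or 4 h, or fed apoptotic Jurkat cells (a leukaemic human T-cell line) over the same times. There were 3 libraries in each of the 10 groups, 30 in all. All groups share the FLT3L culture. The sources used here do not give the knockout allele, the ages of the mice or the doses of OVA and Jurkat cells. No label says that libraries of a group came from separate mice or cultures, so p-values measure the spread between these samples, which may be technical.

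Conventional dendritic cells fall into a type 1 lineage, known for cross-presentation to CD8 T cells, and a type 2 lineage, which mainly presents to CD4 T cells. SIRPA and CD11b (encoded by Itgam) are surface proteins used to gate cDC2, ZEB2 is a transcription factor of that lineage, and Notch2 signalling with lymphotoxin supports the ESAM-positive cDC2 of the spleen. FLT3L cultures yield plasmacytoid dendritic cells beside both conventional types, and none of these genes is restricted to cDC2, since monocytes and macrophages also express several.

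Total counts per library ran from 9.73 M to 51.6 M, with a median of 44.9 M, and the next lowest library after the shallowest (KO, OVA 30 min, replicate 3) held 38.7 M. Levels are CPM, counts relative to library size after scaling with TMM factors. Rubcn was read in KO cells at 0.736 of the WT level without treatment, a log2 fold change of -0.44 (SE 0.0472), and it was lower in KO in 5 of 5 conditions with no overlap of libraries. Which part of the gene was deleted is not stated and Rubcn overlaps Fyttd1, so the KO reads cannot be assigned to an intact or a cut transcript. All 7 genes of a general dendritic cell list were tested, and without treatment they summed to 21787 CPM (WT) and 22141 CPM (KO). Cd74 (9258 CPM), H2-Aa (6283 CPM) and H2-Ab1 (4489 CPM) held most of the WT sum. Flt3 stood at 567 CPM and Itgax at 486 CPM. The lists for type 1 conventional (10 genes) and plasmacytoid dendritic cells (10 genes) summed to 5086 and 3208 CPM in untreated WT cells. Irf8 (2215 CPM) and Wdfy4 (1737 CPM) held most of the type 1 sum. There the list for monocytes or macrophages (10 genes) summed to 3998 CPM, and that for endothelium and stroma (8 genes) to 644 CPM. Genes listed for several cell types were thus read together, and the share of each type was not measured. In such bulk samples, fewer cells of a type and less RNA per cell cannot be told apart.

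Of the 7 markers, 6 were clearly read in these cultures and Esam was close to absent. Divided by exon length, untreated WT cells held 119 CPM per kb of Sirpa, 108 of Itgam and 57.5 of Notch2. Cx3cr1 stood at 14.2, Ltb at 12.4 and Zeb2 at 7.70 CPM per kb. Esam, which encodes an endothelial adhesion molecule that marks Notch2-dependent splenic cDC2, had 0.144 CPM per kb. It lay under 1 CPM in 27 of 30 libraries, with 7 to 132 counts per library, so the ESAM part of the cDC2 label rests on very few reads.

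**Figure D1:**
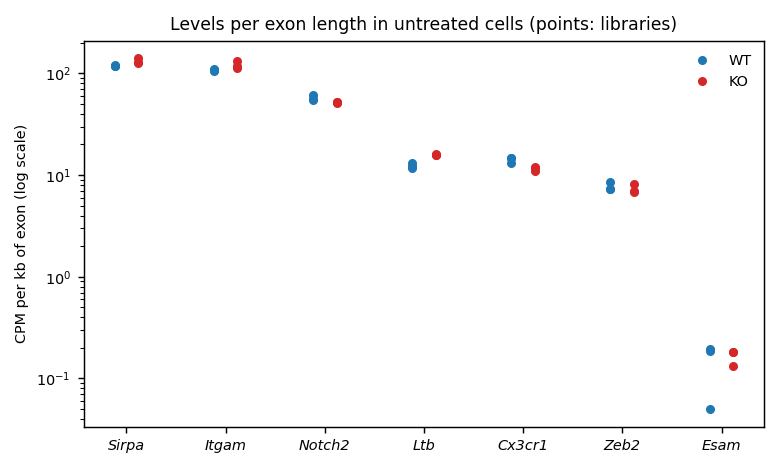
Level per exon length of the 7 markers in untreated cells, in CPM per kb of exon on a log scale; points are libraries, blue WT and red KO, 3 per group. Group means of Sirpa and Itgam lie between 108 and 132 CPM per kb, and those of Esam at 0.144 and 0.165 CPM per kb.

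Promoter stretches are shown for Cx3cr1 and Ltb, which differ most often between the genotypes, and for Itgam, which falls most with Jurkat cells. RefSeq promoters (build GRCm38.p6) were matched for 5 of the 7 genes, and the 250 bases before each start site were searched on both strands. The motifs were RBPJ (TGGGAA), NF-kB (GGGA and CC with 4 bases of any kind between), PU.1 (GAGGAA), IRF (GAAA and GAAA with 2 bases of any kind between) and RUNX (TGTGGT), and capitals mark the matches. Each motif is common, held by 21.6% (RBPJ), 17.6% (NF-kB), 23.3% (PU.1), 2.98% (IRF) and 14.0% (RUNX) of 32851 promoter windows of that length. A match is a description of the letters only. All 250 bases of the Cx3cr1 window lie in an exon of an annotated transcript of the gene, so only 30 bases around its matches are shown. Of the Ltb window 68 of 250 bases are exonic, and the stretch shown ends before them.
Ltb, chr17:35194257-35194438, plus strand: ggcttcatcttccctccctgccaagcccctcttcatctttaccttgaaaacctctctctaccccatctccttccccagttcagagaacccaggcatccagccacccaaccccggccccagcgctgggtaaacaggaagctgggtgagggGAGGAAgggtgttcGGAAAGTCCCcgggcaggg
Itgam, chr7:128062390-128062639, plus strand: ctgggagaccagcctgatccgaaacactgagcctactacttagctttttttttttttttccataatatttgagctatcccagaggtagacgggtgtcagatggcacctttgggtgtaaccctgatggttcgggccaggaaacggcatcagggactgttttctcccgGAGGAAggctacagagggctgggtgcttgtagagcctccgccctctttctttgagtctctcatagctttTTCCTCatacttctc
Cx3cr1, chr9:120068393-120068422, minus strand: gcggtcagctggTTCCCAgcctggagcgtt
Cx3cr1, chr9:120068333-120068362, minus strand: taaagatagggtACCACAcaggaaaccaga
The Ltb stretch holds a PU.1 and an NF-kB match, Itgam holds a pair of PU.1 matches, and the Cx3cr1 sites are an RBPJ and a RUNX match. Among the other markers, Zeb2 had a PU.1 match and Notch2 an NF-kB match.

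The first question was how the knockout and wild-type cells differ in each condition. Cx3cr1 was lower and Ltb higher in KO cells, Itgam and Sirpa were higher in KO after 4 h with Jurkat cells, and Notch2 was lower there. Of 35 gene-by-condition tests (7 genes in 5 conditions), edgeR's quasi-likelihood test called 14 at a Benjamini-Hochberg adjusted p (FDR) below 0.05, against 13.4% of all gene-by-condition tests. By condition, 3 of 7 were called without treatment (9.97% of 14808 genes), 2 at OVA 30 min (12.4%) and 2 at Jurkat 30 min (9.25%). At 4 h, 2 were called with OVA (12.6%) and 5 with Jurkat cells (22.9%). Where libraries of 2 groups are said not to overlap, the share of all genes that separate in this way was not counted.

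**Figure D2:**
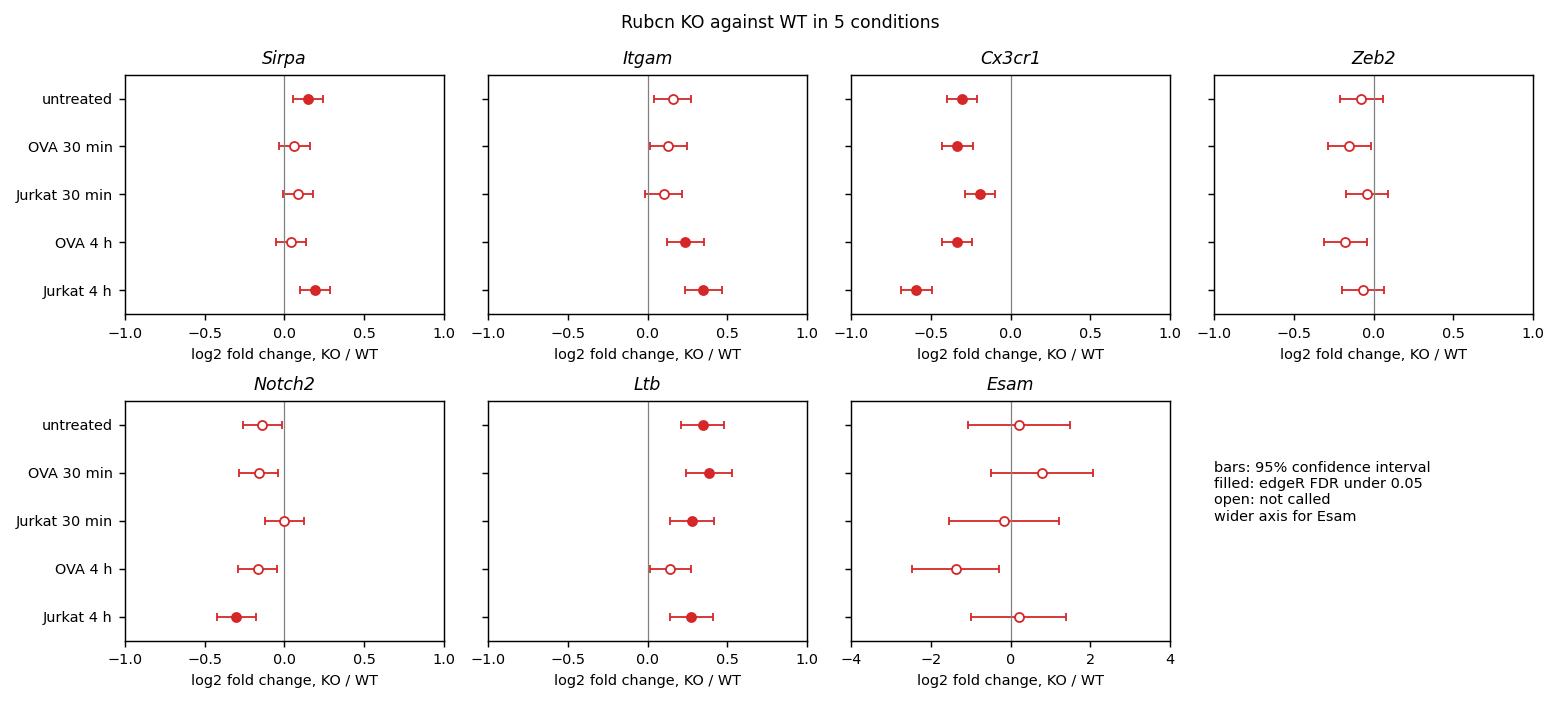
KO minus WT log2 fold change of each marker in the 5 conditions, with the 95% interval from the fit (bars), filled points called and open points not, and a wider axis for Esam. Cx3cr1 lies below 0 in 5 of 5 conditions (-0.59 to -0.19), and Ltb lies above 0 in 5 of 5 (0.14 to 0.38).

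Cx3cr1 (Entrez 13051, mm10 chromosome 9, 120048683 to 120068296) encodes the receptor of fractalkine, a chemokine that also tethers cells. In untreated cells it was read at 59.6, 65.8 and 66.7 CPM in WT and at 53.7, 52.8 and 49.3 CPM in KO. With Jurkat cells for 4 h it was read at 66.6, 65.7 and 61.3 CPM in WT and at 44.3, 41.6 and 42.4 CPM in KO. Every KO library lay below every WT library of its condition, in 5 of 5 conditions. The log2 fold change was -0.30 without treatment (SE 0.046, FDR 4.45e-05), -0.34 at OVA 30 min (FDR 2.2e-05) and -0.34 at OVA 4 h (FDR 4.89e-06). It was -0.19 at Jurkat 30 min (FDR 0.00755), and that call was lost without WT replicate 3 of the condition (-0.15, FDR 0.0584). The difference was -0.59 (SE 0.0476, FDR 1.07e-09) at Jurkat 4 h, where KO cells held 0.663 of the WT level.

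A list of 10 plasmacytoid dendritic cell genes was lower in KO too. In each condition this list had 4 to 7 genes called lower and 1 higher (9.25% to 22.9% of all genes called). Its sum ran from 3178 to 3238 CPM (WT) and from 2766 to 2944 CPM (KO) without treatment, and at Jurkat 4 h from 4214 to 4940 CPM in WT and from 3408 to 3788 CPM in KO. None of the 10 was at 0 in any group. Its part in the Cx3cr1 difference was not tested. Of the 10 monocyte or macrophage genes, 1 was higher and 1 lower in untreated KO cells (9.97% of all genes called). At Jurkat 4 h 1 was higher and 3 lower in KO (22.9%). At OVA 30 min, Jurkat 30 min and OVA 4 h, 3, 1 and 4 were lower in KO and 0 higher. Over all genes, 12.4%, 9.25% and 12.6% were called there.

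Ltb (Entrez 16994, mm10 chromosome 17, 35194507 to 35196305) encodes lymphotoxin beta, the membrane anchor of the lymphotoxin ligand that signals through the receptor encoded by Ltbr. Without treatment it stood at 17.8, 20.01 and 18.7 CPM in WT and at 24.5, 23.7 and 23.6 CPM in KO. At OVA 30 min it stood at 14.7, 15.4 and 18.0 CPM in WT and at 21.1, 21.1 and 20.3 CPM in KO. KO libraries lay above WT libraries without overlap in 4 of 5 conditions, the exception being OVA 4 h (24.01, 29.0 and 26.5 CPM in WT against 28.9, 28.4 and 30.6 CPM in KO). The log2 fold change was 0.35 untreated (SE 0.0658, FDR 0.000661), 0.38 at OVA 30 min (FDR 0.000477), 0.28 at Jurkat 30 min (FDR 0.00768) and 0.28 at Jurkat 4 h (FDR 0.00267). At OVA 4 h it was 0.14 (FDR 0.157), which became 0.21 (FDR 0.0434) without WT replicate 2 of that condition.

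Basophil or mast cell genes moved the same way. In each of the 5 conditions 6 of 6 were called higher in KO (9.25% to 22.9% of all genes called). Their sums without treatment were 21.5 to 27.8 CPM (WT) and 54.8 to 85.3 CPM (KO), and none was at 0. A list of 6 B cell genes had 1 to 3 called higher in KO by condition, beside the same shares of all genes. Its sums were 22.4 to 25.1 CPM (WT) and 25.1 to 26.1 CPM (KO) without treatment. The part of these cells in the Ltb difference was not tested.

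Itgam (Entrez 16409, mm10 chromosome 7, 128062640 to 128118491) encodes CD11b, the alpha chain of the MAC-1 integrin. At OVA 4 h it stood at 491, 482 and 491 CPM in WT and at 587, 572 and 568 CPM in KO, a log2 fold change of 0.24 (SE 0.0561, FDR 0.00421). At Jurkat 4 h it stood at 247, 296 and 248 CPM in WT and at 349, 330.3 and 328 CPM in KO, a change of 0.35 (SE 0.0566, FDR 5.44e-05). The libraries of the genotypes did not overlap in 5 of 5 conditions, KO always being higher. The other 3 conditions gave 0.16 (untreated, FDR 0.0745), 0.13 (OVA 30 min, FDR 0.13) and 0.10 (Jurkat 30 min, FDR 0.296) and were not called. Under scaling to total counts the untreated and OVA 30 min values were called as well (0.17 and 0.15).

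Sirpa (Entrez 19261, mm10 chromosome 2, 129592839 to 129632228) encodes an inhibitory receptor for CD47, the "do not eat me" signal. It was read at 551, 528 and 521 CPM in WT and at 639, 591 and 594 CPM in KO after 4 h with Jurkat cells, a log2 fold change of 0.19 (SE 0.0462, FDR 0.00345). Without treatment it was read at 585, 578 and 596 CPM in WT and at 691, 635 and 621 CPM in KO. Libraries of the genotypes did not overlap in either condition, and KO was higher in both. The untreated difference of 0.15 (FDR 0.042) was lost with DESeq2's size factors (0.13, FDR 0.0632) and when only the compared groups were fitted. It was also lost without any 1 of 8 libraries in turn, at most without KO replicate 1 of that group (0.10, FDR 0.283).

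Notch2 (Entrez 18129, mm10 chromosome 3, 98013538 to 98150367) encodes a receptor whose cleaved domain acts with RBPJ on target genes. At Jurkat 4 h it was read at 604, 692 and 585 CPM in WT and at 549.7, 461 and 515 CPM in KO, without overlap, and the log2 fold change was -0.30 (SE 0.0596, FDR 0.000494). In untreated cells the WT libraries (592 to 659.8 CPM) lay above the KO libraries (554 to 569 CPM), but the change of -0.14 was not called (FDR 0.154). At OVA 30 min and OVA 4 h it was -0.16 (FDR 0.0719) and -0.17 (FDR 0.0618), and both were called with DESeq2 (-0.18 and -0.18).

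Zeb2 (Entrez 24136, mm10 chromosome 2, 44983512 to 45117442) was not called between the genotypes in 5 of 5 conditions. Its log2 fold changes ran from -0.18 (OVA 4 h, interval -0.31 to -0.05, FDR 0.0731) to -0.04 (Jurkat 30 min, interval -0.18 to 0.09). The OVA 4 h value was called when only the compared groups were fitted (-0.18, FDR 0.00701), with DESeq2 (-0.19, FDR 0.0432) and with the replicate number as a block (-0.18, FDR 0.0381). Esam was not called between the genotypes in any condition, with an interval of -1.07 to 1.49 in untreated cells. Its widest difference, -1.38 at OVA 4 h (interval -2.47 to -0.28, FDR 0.0953), rested on WT replicate 3 of that condition at 2.44 CPM. Without that library it was -0.18 (FDR 0.893), and it was called without WT replicate 1 (-1.71, FDR 0.044) or WT replicate 2 (-1.73, FDR 0.0372).

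**Figure D3:**
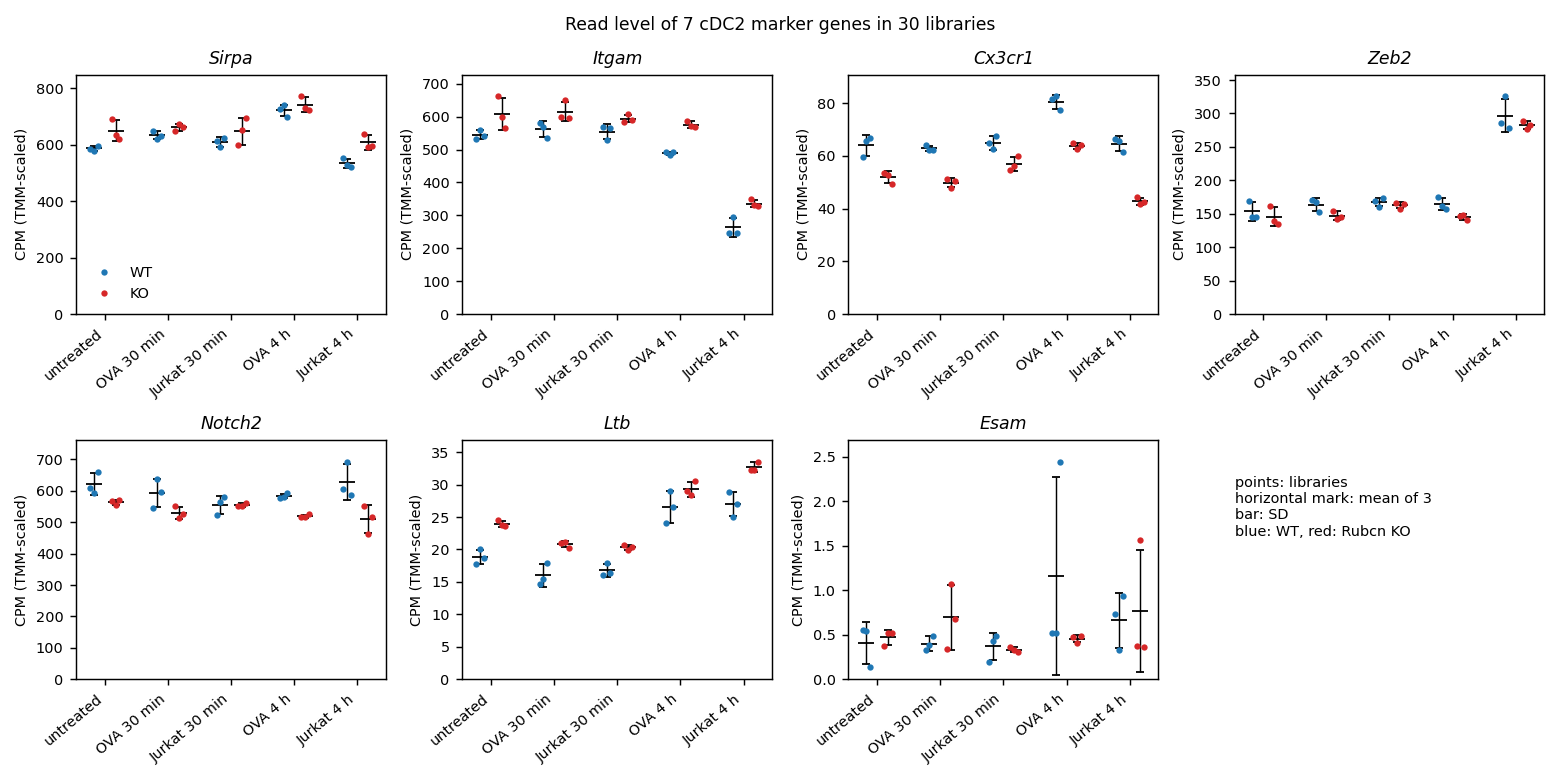
CPM of each marker in all 30 libraries by condition, blue WT and red KO; points are libraries, horizontal marks the mean of 3 and bars the SD. Itgam drops and Zeb2 rises in the 6 libraries given Jurkat cells for 4 h, and blue points lie above red points for Cx3cr1 in each condition.

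The second question was how the cells respond to soluble protein and to apoptotic cells. Each treatment was compared with the same 3 untreated libraries of its genotype, so the comparisons within a genotype share their controls, and values are set side by side. In WT cells, 11 of 28 gene-by-treatment tests were called, against 35.6% over all genes. By treatment these were 1 of 7 at OVA 30 min (10.7%), 1 at Jurkat 30 min (28.7%), 5 at OVA 4 h (23.5%) and 4 at Jurkat 4 h (79.5%). In KO cells 10 of 28 were called, against 27.7% over all genes: 0 at OVA 30 min (3.77%), 2 at Jurkat 30 min (17%), 3 at OVA 4 h (11.6%) and 5 at Jurkat 4 h (78.5%). Of the 7 genes at OVA 30 min in KO, 1 had an unadjusted p under 0.05 in edgeR, and DESeq2 called 0. Without WT untreated replicate 3, the WT count fell from 11 to 7.

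After 4 h with Jurkat cells most genes of the table were called, and the share of markers called was no higher than that background. The TMM factors of those 6 libraries ran from 0.765 to 0.842, against 1.03 to 1.07 in the other libraries. The median log2 fold change of all genes was -0.02 in WT and -0.03 in KO there under TMM, and -0.42 and -0.37 under scaling to total counts. Among all genes called in WT, 48.9% were higher under TMM and 29.0% under total counts. Between the genotypes at Jurkat 4 h, 40.9% of the genes called were higher in KO under TMM and 74.8% under total counts. Values from both scalings are given for the markers at Jurkat 4 h. Between the genotypes there, total counts gave Sirpa 0.27, Itgam 0.43, Cx3cr1 -0.51, Ltb 0.35 and Notch2 -0.22, all still called, and Zeb2 0.01. Most T-lineage genes rose in the same libraries: of 17 tested, 14 were higher and 3 lower in WT, and 13 higher and 4 lower in KO. Over all 14808 genes, 5761 were higher and 6017 lower in WT, and 5548 and 6071 in KO. The sum of that list of 18 ran from 199 to 241 CPM in WT and from 166 to 191 CPM in KO at Jurkat 4 h, against 85.4 to 91.7 and 96.5 to 104 CPM without treatment. Their part in the marker changes was not tested.

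Itgam fell with Jurkat cells at 4 h in both genotypes. From 533, 561 and 542 CPM in untreated WT libraries it dropped to 247, 296 and 248 CPM, a log2 fold change of -1.05 (SE 0.0569, FDR 2.54e-16), or 0.484 of the untreated level. From 662, 598 and 564 CPM in untreated KO libraries it dropped to 349, 330.3 and 328 CPM, a change of -0.86 (SE 0.0566, FDR 3.06e-14). No treated library reached an untreated one, and under total counts the changes were -1.45 and -1.20. Itgb2, the beta chain that pairs with CD11b, fell with it in both genotypes, from 789 ± 20.4 to 419.9 ± 25.8 CPM in WT (SD, n = 3; log2 fold change -0.91, and -1.31 under total counts). At OVA 4 h Itgam changed by -0.16 in WT (FDR 0.0397), a call lost without any 1 of 5 libraries, and by -0.08 in KO (FDR 0.422).

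Zeb2 rose where Itgam fell. It was read at 169.8, 145 and 145 CPM in untreated WT libraries and at 286, 326 and 279 CPM after 4 h with Jurkat cells, 1.93-fold higher (log2 0.95, SE 0.0656, FDR 7.25e-14). In KO it was read at 162, 139.5 and 135 CPM and then at 289, 277 and 283 CPM, 1.95-fold higher (log2 0.96, SE 0.0656, FDR 6.52e-14). All 6 treated libraries lay above every other library of the study, and under total counts the rises were 0.55 and 0.62. Zeb2 was not called with OVA at either time or with Jurkat cells at 30 min. The 30 min Jurkat value in KO (0.16, FDR 0.087) was called with the replicate number as a block (0.17, FDR 0.0436) and without KO untreated replicate 1 (0.25, FDR 0.0108). In WT it was 0.13 (FDR 0.145), and was called without WT untreated replicate 1 (0.21, FDR 0.0223). Zeb2os, an antisense gene that overlaps Zeb2, has its own row in the table with 10792 counts in all, against 235511 for Zeb2, and the use of strand in the counting is not given in the sources used here.

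Ltb rose at 4 h with both stimuli. In WT it went from 17.8, 20.01 and 18.7 CPM to 24.01, 29.0 and 26.5 CPM with OVA (log2 0.49, SE 0.0655, FDR 1.57e-06), and to 28.8, 25.1 and 27.0 CPM with Jurkat cells (0.52, SE 0.0669, FDR 4.49e-08). In KO the rise was 0.29 with OVA (FDR 0.00255) and 0.45 with Jurkat cells (FDR 3.16e-07). Treated and untreated libraries did not overlap in any of these 4 comparisons. Under total counts the Jurkat rises shrank to 0.12 in WT and 0.11 in KO and were not called (FDR 0.124 and 0.14). At 30 min Ltb had 2 calls below untreated cells, of -0.23 with OVA in WT (FDR 0.0244, lost when only the compared groups were fitted, -0.24, FDR 0.101) and of -0.23 with Jurkat cells in KO (FDR 0.0127, lost without KO Jurkat 30 min replicate 2, -0.22, FDR 0.0533).

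Cx3cr1 and Sirpa rose with OVA at 4 h. Cx3cr1 went from 64.0 ± 3.90 to 80.5 ± 2.69 CPM in WT (mean and SD of 3 libraries; log2 fold change 0.33, FDR 2.56e-06) and from 51.9 ± 2.27 to 63.8 ± 1.05 CPM in KO (0.30, FDR 4.85e-05). Sirpa went from 587 ± 9.21 to 721 ± 20.4 CPM in WT (0.30, FDR 1.66e-05) and from 649 ± 36.9 to 740.3 ± 26.6 CPM in KO (0.19, FDR 0.00602). Treated libraries lay above untreated ones without overlap in all 4 comparisons. The Sirpa call in KO was lost without KO OVA 4 h replicate 1 (0.16, FDR 0.0527) or KO untreated replicate 3 (0.16, FDR 0.0513).

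With Jurkat cells at 4 h, Sirpa was lower than in untreated WT cells, by a log2 fold change of -0.14 (FDR 0.00825). That call was lost with DESeq2's size factors (-0.07, FDR 0.143), under the stricter filter on low counts and with DESeq2. Under total counts the Sirpa change was -0.54. In KO it was -0.09 (FDR 0.0658), called with no filter (-0.12, FDR 0.0227) and under total counts (-0.43, FDR 1.42e-09). Notch2 was -0.15 in KO (FDR 0.0267) and 0.01 in WT (FDR 0.825). The KO call was lost with DESeq2's size factors (-0.09, FDR 0.199) and under the stricter filter on low counts. It was also lost with DESeq2 and when only the compared groups were fitted. Under total counts Notch2 was -0.49 in KO and turned to -0.39 in WT (FDR 1.24e-07), both called. At Jurkat 30 min, Notch2 changed by -0.16 in WT (FDR 0.0419) and Cx3cr1 by 0.13 in KO (FDR 0.045). Both were lost without any 1 of several libraries, to -0.11 and 0.098 at the least. The Cx3cr1 call was also lost under total counts (0.12, FDR 0.0657), with no filter (0.13, FDR 0.065), with the replicate number as a block (0.13, FDR 0.0532) and when only the compared groups were fitted (0.13, FDR 0.0953).

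The Esam value in WT at OVA 4 h rested on 1 library. The 3 libraries held 0.525, 0.518 and 2.44 CPM, against 0.557, 0.539 and 0.143 CPM in untreated WT. The fitted log2 fold change of 1.55 (SE 0.543, FDR 0.0383) became 0.35 (FDR 0.72) without replicate 3, so the groups overlapped apart from that library. Without untreated WT replicate 3 it was 1.13 (FDR 0.188), and DESeq2 did not call it (FDR 0.0658). It was also not called when only the compared groups were fitted. The other 7 Esam comparisons with untreated cells were not called.

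**Figure D4:**
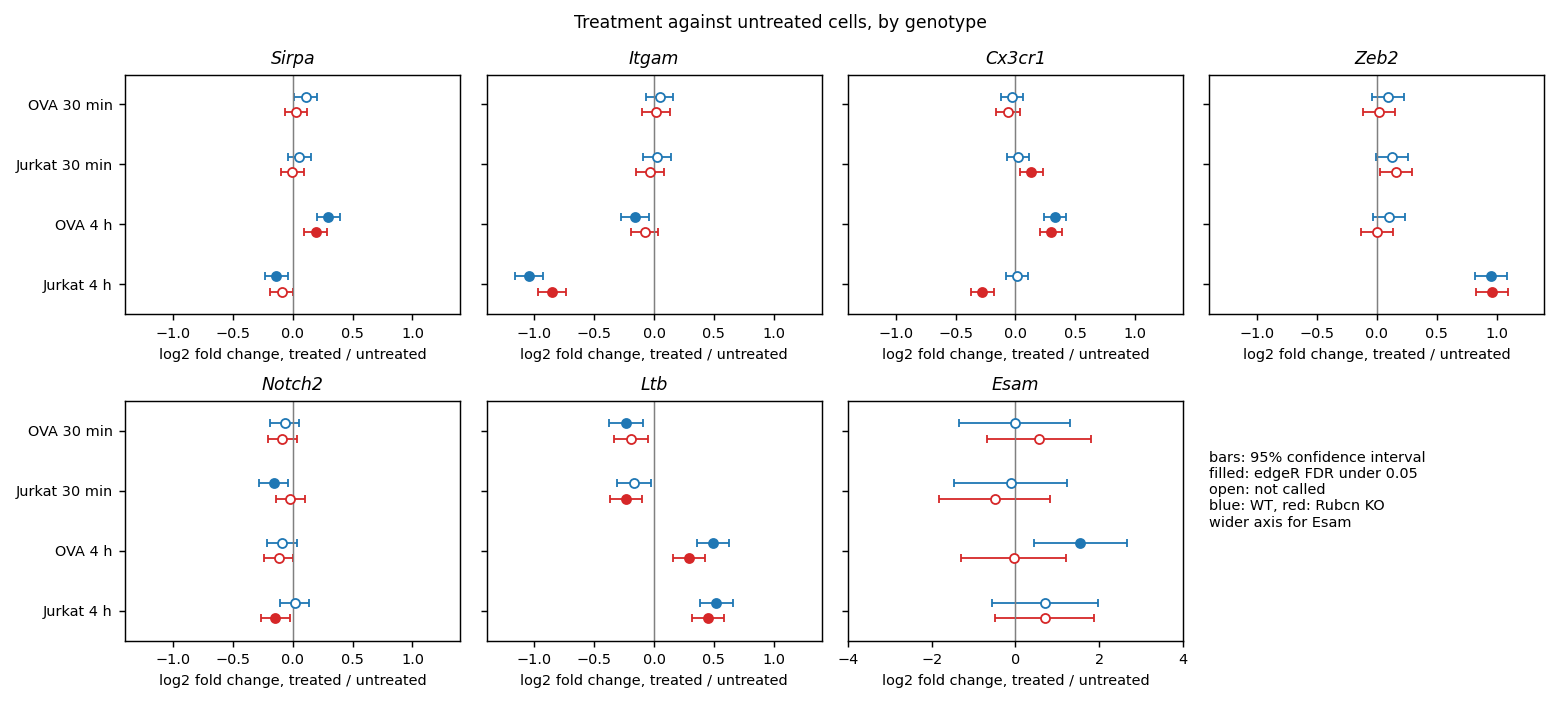
Log2 fold change of each marker against untreated cells for the 4 treatments, WT blue and KO red, with the 95% interval from the fit (bars), filled points called and open points not, and a wider axis for Esam. Itgam lies near -1 and Zeb2 near 1 at Jurkat 4 h in both genotypes, and Cx3cr1 at Jurkat 4 h is 0.01 in WT and -0.28 in KO.

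The third question was whether the response to a treatment differs between the genotypes, which was tested with an interaction term. Of 28 tests 1 was called, against 1.08% over all genes. By treatment, 0 of 7 were called at OVA 30 min (0% of all genes), Jurkat 30 min (0.00675%) and OVA 4 h (0.0405%), and 1 of 7 at Jurkat 4 h (4.26%). In edgeR, the unadjusted p was under 0.05 for 0, 0, 1 and 2 genes in that order, and DESeq2 called 0, 0, 0 and 1.

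The 1 call was Cx3cr1 at Jurkat 4 h, with a difference in log2 response of -0.29 (SE 0.0662, interval -0.43 to -0.16, FDR 0.0116). WT cells went from 64.0 ± 3.90 to 64.5 ± 2.81 CPM (log2 0.01, FDR 0.822), while KO cells went from 51.9 ± 2.27 to 42.8 ± 1.38 CPM (-0.28, SE 0.0474, FDR 4.95e-06), each over 3 libraries. All 3 treated KO libraries lay below all 3 untreated KO libraries, and the WT groups overlapped. The interaction kept its sign under total counts (-0.23, FDR 0.0379), although the WT response was then -0.39 and the KO response -0.62. It was not called when only the 4 groups were fitted (-0.25, FDR 0.0902). For Itgam the interaction at Jurkat 4 h was 0.19 (FDR 0.176), and it was called under total counts (0.26, FDR 0.0308) and without WT Jurkat 4 h replicate 2 (0.28, FDR 0.0237).

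Jurkat cells and OVA were also compared at matched times, with the genotypes averaged. At 30 min 1 of 7 was called (29.9% of all genes): Cx3cr1 was 0.12 higher with Jurkat cells (SE 0.0331, FDR 0.006). At 4 h 4 of 7 were called (82.6% of all genes). Itgam was lower with Jurkat cells by a log2 fold change of -0.83 (SE 0.0401, FDR 9.3e-18), Cx3cr1 by -0.45 (SE 0.0329, FDR 2.54e-13) and Sirpa by -0.36 (SE 0.0326, FDR 3.11e-11). Zeb2 was higher by 0.91 (SE 0.0463, FDR 4.16e-17). Under total counts these were -1.20 for Itgam, -0.81 for Cx3cr1, -0.72 for Sirpa and 0.54 for Zeb2. Ltb (0.09, FDR 0.0651) and Notch2 (0.04, FDR 0.399) were not called. Both turned negative under total counts (-0.27 and -0.33), and both were called higher with DESeq2 (Ltb 0.16, FDR 0.00147; Notch2 0.11, FDR 0.0179). Notch2 was also called with DESeq2's size factors (0.11, FDR 0.0237) and under the stricter filter on low counts (0.094, FDR 0.0324). Ltb was called higher in both of these fits too. It was also called higher with the replicate number as a block within genotype and when only the compared groups were fitted.

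The groups given Jurkat cells for 4 h stood at one end of the order of 10 groups for Itgam (lowest) and Zeb2 (highest). Itgam ran from WT Jurkat 4 h to KO OVA 30 min, a 2.33-fold range of group means, and only the 3 lowest steps separated neighbouring groups without overlap of libraries. Zeb2 ran from KO OVA 4 h to WT Jurkat 4 h (2.04-fold), and the 1 step without overlap lay between WT Jurkat 30 min and KO Jurkat 4 h. Cx3cr1 ran from KO Jurkat 4 h to WT OVA 4 h (1.88-fold), with 4 of 9 steps free of overlap. Ltb spanned 2.04-fold with 2 such steps, Sirpa 1.39-fold with 2, Notch2 1.23-fold with 1, and Esam 3.46-fold with 0.

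Genes with a direct role beside these markers were examined in the same fit. Ltbr, the lymphotoxin beta receptor, was not called between the genotypes in 5 of 5 conditions (log2 -0.08 to 0.04), but its Jurkat 4 h value was called under total counts (0.12, FDR 0.038). Lta, the partner subunit of Ltb, rose from 0.156 ± 0.0254 to 24.7 ± 2.02 CPM in WT with Jurkat cells at 4 h (SD, n = 3) and from 0.158 ± 0.0154 to 15.1 ± 0.139 CPM in KO. It was lower in KO there (log2 -0.71, FDR 0.00034, and -0.62 under total counts). Of the 17 T-lineage genes tested, 6 were lower and 0 higher in KO in that condition (22.9% of all genes called). The part of Jurkat cell reads in the Lta values was not tested. Cx3cl1, the ligand of CX3CR1, rose from 21.2 ± 0.542 to 182 ± 10.9 CPM in WT and from 19.2 ± 1.18 to 192 ± 3.26 CPM in KO at Jurkat 4 h, by log2 3.10 and 3.32, or 2.70 and 2.98 under total counts. Cd47, the ligand of SIRPA, was lower in KO in 3 of 5 conditions, and rose in WT at Jurkat 4 h by 1.12, or 0.72 under total counts. Rbpj, the nuclear partner of Notch, was not called between the genotypes in 5 of 5 conditions.

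The list of 41 partner genes of the Notch, lymphotoxin, SIRPA, MAC-1 and CX3CR1 pathways had 1 gene higher and 3 lower in untreated KO cells (9.97% of all genes called), with a median log2 fold change of -0.00 against -0.01 over all genes. At OVA 30 min 4 were higher and 2 lower in KO (12.4% of all genes called), and at Jurkat 30 min 2 and 1 (9.25%). At OVA 4 h 3 were higher and 9 lower in KO (12.6%). At Jurkat 4 h 5 were higher and 6 lower in KO (22.9% of all genes called), or 9 and 4 under total counts. Fyb, an adaptor that binds SKAP proteins, was lower in KO in 4 of 5 conditions, of which the Jurkat 4 h call (-0.13, FDR 0.0433) was lost under total counts (-0.05, FDR 0.405). Jag2, a Notch ligand, was higher in KO in 3 of 5. Of the 41, it was the 1 gene with an interaction called at Jurkat 4 h (0.47, FDR 0.0193), beside 4.26% of all genes. In WT, 6 were higher and 3 lower at OVA 30 min (10.7% of all genes called), and 5 and 3 at Jurkat 30 min (28.7%). At OVA 4 h in WT 11 were higher and 3 lower (23.5%). With Jurkat cells at 4 h in WT, 24 of 41 were higher and 11 lower (79.5% of all genes called), or 18 and 22 under total counts. Among them were Icam1, a ligand of MAC-1 (log2 3.69, and 3.28 under total counts), and Tnfsf14, the cytokine LIGHT, which was lower in WT with each of the 4 treatments (-2.40 at Jurkat 4 h, and -2.80 under total counts). Notch1 was lower in WT with 3 treatments, and at Jurkat 4 h it was 0.14 higher under TMM and turned to -0.26 under total counts, both called.

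Of 27 other genes linked to cDC2, 6 were higher and 2 lower in untreated KO cells (9.97% of all genes called). At OVA 30 min 4 were higher and 4 lower in KO (12.4% of all genes called), and at Jurkat 30 min 8 and 3 (9.25%). At OVA 4 h 5 were higher and 2 lower in KO (12.6%). At Jurkat 4 h 7 were higher and 4 lower in KO (22.9% of all genes called), or 9 and 3 under total counts. Mgl2, a C-type lectin, was higher in KO in 5 of 5 conditions, at 24.2 ± 1.69 CPM against 14.1 ± 1.11 CPM untreated (SD, n = 3; log2 0.78, FDR 3.7e-05). Cebpa, a myeloid transcription factor, was higher in KO in 4 of 5 conditions and fell in WT at Jurkat 4 h (-2.42, and -2.82 under total counts). Its interaction of 0.30 there (FDR 0.0318) was the 1 called among the 27, beside 4.26% of all genes. Cd4, carried by a share of mouse cDC2, was lower in KO in 4 of 5 conditions. In WT, 4 of the 27 were higher and 2 lower at OVA 30 min (10.7% of all genes called), and 6 and 1 at Jurkat 30 min (28.7%). At OVA 4 h 10 were higher and 4 lower in WT (23.5%), and at Jurkat 4 h 12 and 13 (79.5%). Il1b, Tnfsf9 and Cebpb were called higher in WT with each of the 4 treatments, Il1b most at Jurkat 4 h (log2 5.31, and 4.91 under total counts). The median log2 fold change of the 27 between the genotypes was 0.08 untreated, against -0.01 over all genes.

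Other genes followed the markers across libraries. These correlations are descriptions over libraries that share groups and scaling. Over 30 libraries, log2 CPM of Itgam was most like Eps8 (Pearson r 0.984) and Mindy1 (0.983), and Zeb2 was most like Rel and Actr2 (both 0.985). Sirpa was most like Csf1r (0.887) and Lyz2 (0.865), Cx3cr1 like Clec12a (0.814) and Slc4a8 (0.793), and Ltb like Phlda3 (0.919) and Psrc1 (0.897). Notch2 was most like Itpr1 (0.888) and Fyn (0.856), and Esam like Ctsk (0.76) and Serpine2 (0.702).

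Over the 24 libraries without Jurkat 4 h the nearest genes were other ones, apart from Actr2 for Zeb2 (0.859), where Ptprc came first (0.880). They were Myo1e (0.953) and Alas1 (0.950) for Sirpa, Pald1 (0.910) and Angptl2 (0.906) for Itgam, Arhgef10l (0.924) and H2-D1 (0.922) for Cx3cr1, and Ifngr2 (0.909) and Pfkl (0.905) for Ltb. For Notch2 they were Tns1 (0.931) and Arhgap17 (0.888), and for Esam Mmp13 (0.801) and Acp5 (0.792). Among the markers themselves, Itgam and Zeb2 had r = -0.92 over 30 libraries, and Itgam and Cx3cr1 had r = -0.81 over the 24.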

How the data were processed

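RNA was measured in 30 libraries of FLT3L-cultured bone marrow cells, 3 in each of 10 groups taken from the sample titles. The authors deposited whole-number read counts per gene with mm10 intervals, per the file headers. STAR 2.5, Subread, featureCounts 1.5.0-p1 and DESeq2 are named in the submitters' processing notes. The sources used here give neither the annotation, nor whether strand was used, nor how human reads from Jurkat cells were handled. Zeb2os (overlapping Zeb2) and Fyttd1 (overlapping Rubcn) have rows of their own, with 10792 and 78277 counts, so reads may be split there. Annotated genes that overlap Itgam, Cx3cr1 and Notch2 are not rows of the table.

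Total counts were 9.73 M to 51.6 M per library. Genes passing filterByExpr (14808) were tested with edgeR 4.0.16 in R 4.3.3 (TMM, quasi-likelihood, 1 mean per group, two-sided). Genes were called at FDR below 0.05, with Benjamini-Hochberg adjustment across the tested genes. Each SE was derived from the F statistic (fold change on the log2 scale over its root). Exon lengths came from the GENCODE M21 annotation. Correlations used log2 CPM with a prior count of 2.

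On simulated data (untreated KO against WT, 14736 genes), the changed genes were drawn from those with a mean of at least 5 CPM. Among them, 80% of genes changed by log2 0.3 and 99% of those changed by 1 were called with the right sign. The simulated spread was taken from the fit to these data, and the rates do not cover genes as low as Esam. The share of false calls in the simulation is not given here. The 7 markers and all lists were chosen with earlier results of these data known. Named genes are Rubcn, the 7 markers, their direct partners, up to 3 genes per list and family by number of contrasts called (ties by smallest p, at least 5 CPM in 1 group), and the 2 nearest genes by correlation with a mean of at least 5 CPM. Alternatives were DESeq2's size factors, total counts, no filter, at least 5 CPM in 3 libraries, replicate blocks, the compared groups alone, DESeq2 1.42.0, and leaving out each library. Leaving out the Jurkat 4 h libraries was added after seeing the data. No 2 libraries of a group were identical.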

Additional observations from a re-analysis of the deposited data

Results flagged for a closer look

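The response of Cx3cr1 to 4 h with Jurkat cells differed between the genotypes by a test of the difference itself. The interaction was -0.29 on the log2 scale (SE 0.0662, FDR 0.0116, edgeR's quasi-likelihood test). All 3 treated KO libraries lay below all 3 untreated KO libraries, while WT libraries overlapped. Leaving out each of the 30 libraries in turn gave -0.33 to -0.24, and no library's removal ended the call. The interaction was not called when only the compared groups were fitted. Under total counts it was still called, but the WT response turned to -0.39, beside -0.62 in KO.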

How the results depend on the processing

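Counts of calls among the 7 markers (14 between genotypes, 11 for treatments in WT, 10 in KO, 1 interaction, 5 between stimuli) stayed within 1.5 times under the alternatives that kept all libraries, except for 2 interactions with total counts and 0 with the compared groups alone. Leaving out each library gave 12 to 18, 7 to 12, 8 to 11, 1 to 2 and 5 to 6 calls. The 7 came without WT untreated replicate 3 and the 2 without WT Jurkat 4 h replicate 2. Deviations from group means over all tested genes correlated by -0.07 to 0.22 between same-numbered libraries of a genotype. Their median was 0.0035 in KO and 0.025 in WT, against 0.00066 and -0.015 for other numbers. Whether same-numbered libraries share a culture or batch was not tested. The replicate block gave 15, 11, 10, 1 and 5 calls. A block within genotype could not be fitted for KO against WT. DESeq2 gave 17 calls between genotypes. Without the Jurkat 4 h libraries, an alternative chosen after seeing the data, the other 4 conditions gave 12 calls in place of 9. The cause of these shifts was not tested.

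Values that changed sign were uncalled in the fit reported. After the change, 4 were called, all under total counts: Cx3cr1 and Notch2 at Jurkat 4 h in WT, and Ltb and Notch2 at Jurkat 4 h against OVA 4 h. Ranges below are over fits that leave out 1 library each, given where a sign changed. Sirpa ran over -0.0055 to 0.073 (OVA 30 min in KO), -0.056 to 0.051 (Jurkat 30 min in KO). Itgam ran over -0.0044 to 0.058 (Jurkat 30 min in WT), -0.034 to 0.082 (OVA 30 min in KO), -0.084 to 0.032 (Jurkat 30 min in KO), -0.079 to 0.037 (interaction at OVA 30 min). Further ranges for Itgam were -0.11 to 0.0079 (interaction at Jurkat 30 min). For Esam, interaction at Jurkat 4 h became 0.048 (total counts), 0.031 (compared groups alone). Jurkat 4 h against OVA 4 h became 0.014 (DESeq2 size factors), 0.034 (DESeq2). Esam ran over -0.21 to 0.49 (KO against WT untreated), -0.45 to 0.11 (KO against WT at Jurkat 30 min), -0.85 to 0.54 (KO against WT at Jurkat 4 h), -0.44 to 0.26 (OVA 30 min in WT). Further ranges for Esam were -0.54 to 0.17 (Jurkat 30 min in WT), -0.18 to 1.03 (OVA 30 min in KO), -0.18 to 0.035 (OVA 4 h in KO), -0.36 to 1.03 (Jurkat 4 h in KO). Further ranges for Esam were -0.16 to 1.05 (interaction at OVA 30 min), -0.66 to 0.050 (interaction at Jurkat 30 min), -1.06 to 0.41 (interaction at Jurkat 4 h), -0.58 to 0.54 (Jurkat 4 h against OVA 4 h). For Cx3cr1, Jurkat 4 h in WT became -0.39 (total counts), -0.022 (no filter). Cx3cr1 ran over -0.077 to 0.0026 (OVA 30 min in WT), -0.028 to 0.052 (Jurkat 30 min in WT), -0.042 to 0.045 (Jurkat 4 h in WT), -0.069 to 0.016 (interaction at OVA 30 min). Further ranges for Cx3cr1 were -0.068 to 0.017 (interaction at OVA 4 h). For Notch2, KO against WT at Jurkat 30 min became 0.0088 (total counts), 0.0060 (stricter filter), 0.0026 (compared groups alone). Jurkat 4 h in WT became -0.39 (total counts), -0.019 (no filter). Jurkat 4 h against OVA 4 h became -0.33 (total counts). Notch2 ran over -0.042 to 0.035 (KO against WT at Jurkat 30 min), -0.066 to 0.060 (Jurkat 4 h in WT), -0.079 to 0.031 (interaction at OVA 30 min), -0.075 to 0.0051 (interaction at OVA 4 h). Further ranges for Notch2 were -0.042 to 0.013 (Jurkat 30 min against OVA 30 min), -0.0037 to 0.068 (Jurkat 4 h against OVA 4 h). For Ltb, Jurkat 4 h against OVA 4 h became -0.27 (total counts). Ltb ran over -0.021 to 0.13 (interaction at OVA 30 min), -0.017 to 0.058 (Jurkat 30 min against OVA 30 min). For Zeb2, KO against WT at Jurkat 4 h became 0.014 (total counts). OVA 4 h in KO became 0.0022 (total counts), 0.00036 (stricter filter), 0.00096 (replicate block), 0.0013 (replicate block within genotype), 0.0034 (compared groups alone), 0.0058 (without the 4 h Jurkat libraries). Zeb2 ran over -0.16 to 0.00083 (KO against WT untreated), -0.11 to 0.0036 (KO against WT at Jurkat 4 h), -0.034 to 0.099 (OVA 30 min in KO), -0.051 to 0.082 (OVA 4 h in KO). Further ranges for Zeb2 were -0.15 to 0.0065 (interaction at OVA 30 min), -0.043 to 0.12 (interaction at Jurkat 30 min), -0.069 to 0.092 (interaction at Jurkat 4 h).

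Depth limits Esam most, at 7 to 132 counts per library.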
